A study of Mus musculus with 4 samples.

Results

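The genes of the muscle ubiquitin ligase system and of its best known transcription factors described here, 8 in number, were followed through RNA-seq libraries of mouse heart. They were taken from a list of gene symbols: Trim63, Trim55 and Trim54, which encode the RING ligases MuRF1, MuRF2 and MuRF3; Fbxo32 and Fbxo30, which encode the F-box proteins atrogin-1 (MAFbx) and MUSA1; and the FoxO factors Foxo1, Foxo3 and Foxo4. All 8 were among the 23337 gene symbols listed in each library. The libraries came from C57BL6/J mice, male and female together. PIMT fl/fl mice, whose PIMT gene (listed as Tgs1) carries loxP sites around some of its exons, served as controls, and the csPIMT-/- mice had the same allele with an α-MyHC-Cre transgene, whose promoter is active in cardiomyocytes. Each genotype was sampled at 2 and at 6 months of age, and the RNA of 5 hearts made 1 library, which left 4 libraries without any replicate. No library came from mice with the Cre transgene and an intact PIMT gene, so effects of the transgene and of the deletion cannot be told apart.

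In muscle, a ubiquitin ligase selects a protein and has ubiquitin attached to it, which usually sends the protein to the proteasome. The MuRF proteins form a small family that sits on the sarcomere and acts on thick filament and metabolic proteins. Atrogin-1 and MUSA1 are the substrate-binding parts of SCF ligases, which are built on cullin 1. FoxO factors are kept out of the nucleus when insulin or IGF signaling activates AKT, and when they are nuclear they are known to switch on Fbxo32, Trim63, Fbxo30 and genes of autophagy. Because FoxO activity is set largely by phosphorylation and location, FoxO mRNA levels do not measure it.

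Reads counted on genes numbered 29823073 to 40705783 per library. The deposited values are counts divided by a size factor of the library, called normalized counts here, and 1 read was worth 0.865 to 1.23 of them. Tgs1, the deleted gene, stood at 580 (2 months) and 816 (6 months) normalized counts in controls against 160 and 162 in csPIMT-/- hearts, the direction the labels give, with GC-subtracted ratios (defined below) of 0.602 and 0.495. Cardiomyocyte markers were high in every library, with a csPIMT-/- to control ratio of their summed normalized counts of 0.997 at 2 months and 0.810 at 6 months. Some libraries stood apart in markers of other tissue. The atrial marker Myl7 had 1045 normalized counts in the 2-month control but 17299 in the 6-month control, 42908 in 2-month csPIMT-/- and 8084 in 6-month csPIMT-/- hearts. The summed lung markers were 1169 in 2-month csPIMT-/- hearts and 1.73 to 18.7 elsewhere, and the summed brown fat markers were 8798 there against 3279 to 3662 elsewhere. Cidea and Ppargc1b, at 1889 and 1756 normalized counts, made up most of the brown fat sum in the 2-month control. Adipoq had 5.19 there, 453 in the 6-month control, 1830 in 2-month csPIMT-/- and 298 in 6-month csPIMT-/- hearts. At 2 months 4 of the 5 brown fat markers were above the control and 1 below, with a median ratio of 194. At 6 months 1 was above and 4 below. The summed atrial markers were 8.20 times the control at 2 months and 2.88 times at 6 months. That 6-month rise came from Nppa alone, at 320296 normalized counts against 70659, a gene the paper assayed as an indicator of heart failure. The other 4 of the 5 atrial markers had ratios below 1 at 6 months, and the median ratio of all 5 was 0.467. The summed macrophage and leukocyte markers were 2.33 and 1.38 times the control at 2 and 6 months. Of the 5 compared, 4 were above the control and 1 below at 2 months, and 3 above and 2 below at 6 months. Ptprc was below at both ages, at 219 against 412 normalized counts at 2 months and 420 against 948 at 6 months. The log2 ratio of csPIMT-/- over control also followed the GC content of the transcript over all genes, with a Spearman rho of 0.58 at 2 months and 0.608 at 6 months, against -0.268 between the controls of both ages. The ratios of the members are therefore given also after a smooth curve of log2 ratio on GC content was subtracted, called the GC-subtracted ratio. In whole-heart RNA, fewer cells of a type and less RNA per cell cannot be told apart.

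Levels of different genes were compared as normalized counts per kilobase (kb) of the longest annotated transcript. In the control hearts the MuRF genes and Fbxo32 stood above the FoxO factors, and Fbxo30 lay between Foxo4 and Foxo3. Trim63 led in both control libraries, at 4475 and 4542 per kb at 2 and 6 months, and Foxo1 was lowest, at 78.3 and 89.7 per kb. At 2 months the control order was Trim63, Trim55, Trim54, Fbxo32, Foxo4, Fbxo30, Foxo3 and Foxo1. Trim55 and Trim54, at 1215 and 1142 per kb, were close to each other in that library, and Trim54 passed Trim55 in the 6-month control. In both csPIMT-/- libraries Trim54 stood first, at 6031 and 10418 per kb, and Foxo1 remained last, at 78.4 and 117 per kb. In the 2-month csPIMT-/- library Fbxo30, at 87.7 per kb, was next to Foxo1. Without replicate libraries the spread of these levels is unknown, so neighbours in the order are not claimed to differ.

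**Figure D1:**
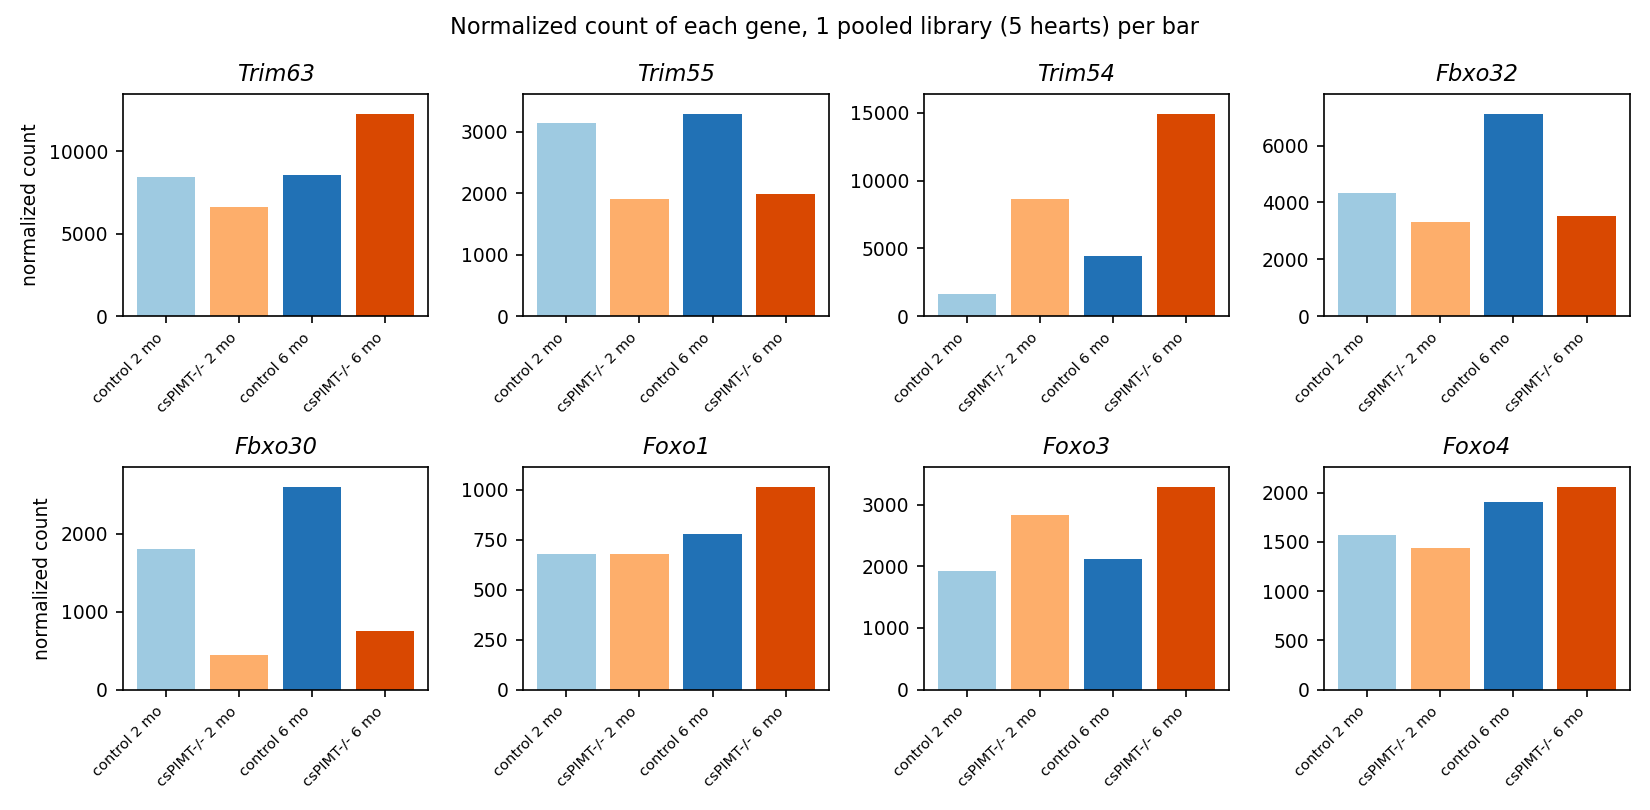
Normalized count (y axis, from 0, a separate scale in each panel) of each of the 8 genes in the 4 libraries (x axis), with 1 bar per pooled library of 5 hearts and no error bars, since there were no replicates. Trim54 is higher and Trim55, Fbxo32 and Fbxo30 are lower in both csPIMT-/- libraries (orange) than in both controls (blue), and Foxo3 is higher.

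For 5 of the 8 genes, both csPIMT-/- libraries lay on the same side of both controls: 3 below them (Trim55, Fbxo32, Fbxo30) and 2 above them (Trim54, Foxo3). Over all 14847 genes with at least 10 normalized counts in at least 2 libraries, 35.9% lay below and 35.2% above in the same way, so a count of this size is near the background. The difference between genotypes over both ages was tested with limma on log2(normalized count + 1), with genotype and age in the model and Benjamini-Hochberg adjustment over all 14847 genes. Such a fit has 1 residual degree of freedom and rests on variance borrowed across genes. It called 1 member higher in csPIMT-/- hearts, Trim54, and 1 lower, Fbxo30, where 11% of all genes were called higher and 17.5% lower. The same fit after GC subtraction called none of the 14666 genes with a GC value, with 1819 lower and 2002 higher at an unadjusted p below 0.05. edgeR on the recovered reads, without GC subtraction, called 2521 lower and 1637 higher, and DESeq2 called 2988 and 2190.

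Trim54 rose most of the 8 genes. MuRF3, its product, binds microtubules and the Z-disc and helps to keep the sarcomere intact. Trim54 lies on chromosome 5 of GRCm38, from 31116712 to 31137630 on the + strand. It had 1637 normalized counts in the 2-month control, 4439 in the 6-month control, 8649 in 2-month csPIMT-/- and 14940 in 6-month csPIMT-/- hearts. Both csPIMT-/- libraries exceeded both controls, but the controls themselves differed, the older being 2.71 times the younger. The ratio of csPIMT-/- over control was 5.28 at 2 months, with a 95% Clopper-Pearson interval of 5.02 to 5.56, and 3.37 at 6 months (3.26 to 3.48). These intervals, here and below, cover the counting error of the reads alone, not the variation between mice or pools. The limma log2 difference was 2.08 (SE 0.24, adjusted p = 0.016). After GC subtraction the ratios were 3.18 and 1.98, and the limma log2 difference was 1.33 with an adjusted p of 0.098 (range over all alternatives 2.79e-09 to 0.11). Against the control of the other age the ratio was 1.95 for the 2-month and 9.13 for the 6-month csPIMT-/- library. In fits with genotype alone that left out 1 library, the adjusted p was 0.066 without the 2-month control, 0.054 without the 2-month and 0.11 without the 6-month csPIMT-/- library. Each of the 5 atrial markers was also lowest in the 2-month control. At 6 months 4 of them were lower in csPIMT-/- hearts than in the control, among them Myl7 (8084 against 17299 normalized counts). The other, Nppa, was higher (320296 against 70659) and rose over the 4 libraries in the same order as Trim54. The part of atrial tissue in the Trim54 differences was not tested. Of the 50-base stretches of the Trim54 transcript, 19.1% also lie in Gm15469, which is annotated on the other strand, and the strand setting of the counting is not given in the sources used here, so reads of the pair may not be fully separated.

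Trim63 did not keep 1 direction. MuRF1, its product, is the ligase of the family best known for thick filament breakdown in wasting muscle. Trim63 lies on chromosome 4, from 134315120 to 134329629 on the + strand. It had 8440 normalized counts in the 2-month control, 8567 in the 6-month control, 6620 in 2-month csPIMT-/- and 12274 in 6-month csPIMT-/- hearts. The controls were nearly equal, and the csPIMT-/- libraries lay on either side of them. The ratio was 0.784 at 2 months (0.758 to 0.811) and 1.43 at 6 months (1.39 to 1.47). After GC subtraction it was 0.629 and 1.09. Over both ages the limma log2 difference was 0.08 (SE 0.28, adjusted p = 0.83). Over all genes, 10.5% had a ratio below 1 at 2 months and above 1 at 6 months.

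The letters before the start of Trim63 and of Trim54 are shown because they hold the one FoxO motif found among the members and allow a comparison within the family. They are the 250 bases upstream of the RefSeq start on GRCm38.p6, for Trim63 at chr4:134314870-134315119 and for Trim54 at chr5:31116362-31116611, both on the + strand and 5′ to 3′. Capitals mark the FoxO consensus GTAAACAA, here on the opposite strand and so read as TTGTTTAC:
Trim63: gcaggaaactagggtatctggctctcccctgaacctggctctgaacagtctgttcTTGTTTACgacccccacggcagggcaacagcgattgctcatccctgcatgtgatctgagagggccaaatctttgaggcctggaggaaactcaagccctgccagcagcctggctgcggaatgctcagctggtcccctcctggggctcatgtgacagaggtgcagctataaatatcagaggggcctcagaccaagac
Trim54: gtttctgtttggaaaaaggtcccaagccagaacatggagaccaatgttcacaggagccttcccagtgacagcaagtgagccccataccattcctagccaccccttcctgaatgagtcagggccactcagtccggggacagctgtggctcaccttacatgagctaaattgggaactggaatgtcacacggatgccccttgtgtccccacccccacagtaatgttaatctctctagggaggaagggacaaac
The first letter of the Trim63 match lies 195 bases before the start. Both strands were searched, and 1.23% of 32851 RefSeq windows held GTAAACAA, while 3.65% held the shorter GTAAACA that is contained in it. The Trim54, Fbxo30, Foxo1 and Foxo3 windows held neither. An E-box, CAGCTG, was found in the Trim63 window 72 bases and in the Trim54 window 113 bases before the start, as in 16.3% of all windows. These are matches of letters and show no binding. Trim55, Fbxo32 and Foxo4 had no entry.

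Trim55 was lower in both csPIMT-/- libraries by nearly the same amount. MuRF2, its product, is the family member that also associates with microtubules in differentiating muscle cells and with titin. It lies on chromosome 3, from 19644474 to 19692421 on the + strand. Its normalized counts were 3152 in the 2-month control, 3295 in the 6-month control, 1909 in 2-month csPIMT-/- and 1980 in 6-month csPIMT-/- hearts. The 4 values fell into a control pair and a lower csPIMT-/- pair. The ratio was 0.605 at 2 months (0.570 to 0.643) and 0.601 at 6 months (0.568 to 0.635), against 1.05 between the controls. The GC-subtracted ratios were 0.713 and 0.706. The limma log2 difference was -0.73 (SE 0.20, adjusted p = 0.052), which missed the threshold, and its adjusted p lay between 0.035 and 0.21 over the alternatives.

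The composition of the MuRF family thus differed between the libraries. Per kb, Trim54 made up 16.7% of the summed MuRF level in the 2-month control and 34.7% in the 6-month control, and 58.7% and 58.9% in the csPIMT-/- libraries of 2 and 6 months. Trim63 made up 65.5% and 51.0% in the controls and 34.2% and 36.8% in the csPIMT-/- libraries. Trim55 had 17.8% and 14.3% in the controls and 7.16% and 4.31% in csPIMT-/- hearts. With all annotated exons of a gene as its length, the Trim54 share was 21.5% and 42.1% in the controls and 66.4% and 67.3% in csPIMT-/- hearts, and Trim54 then led in the 6-month control also. The summed level was 6832 and 8908 per kb in the controls and 10277 and 17689 in the csPIMT-/- libraries. These shares carry no replicate error and no test.

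**Figure D2:**
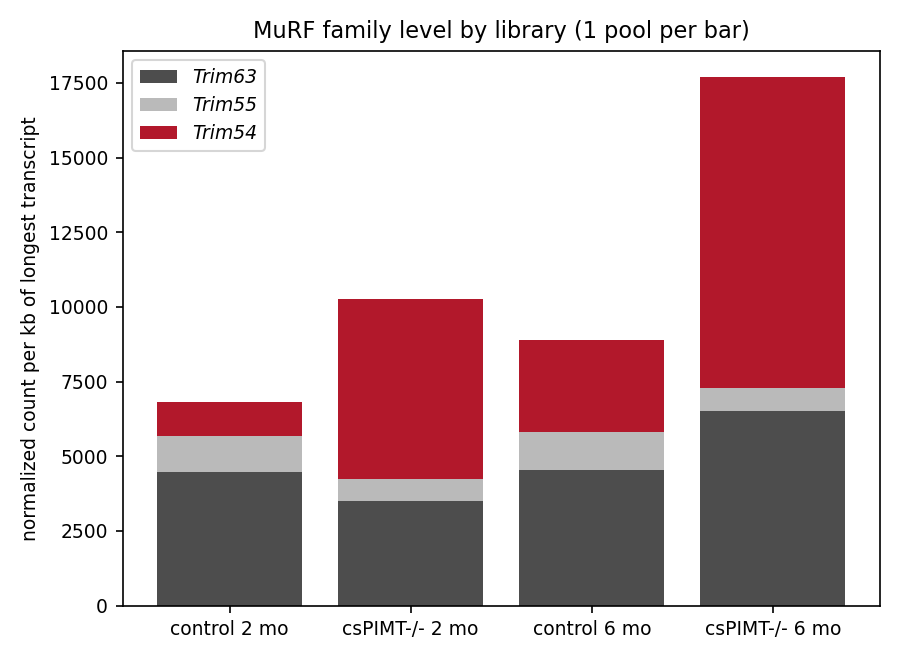
Normalized count per kb of longest transcript (y axis, from 0) of Trim63, Trim55 and Trim54, stacked for each of the 4 pooled libraries (x axis). The red Trim54 segment is 1142 and 3095 per kb in the 2- and 6-month controls and 6031 and 10418 in the csPIMT-/- libraries of these ages.

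Of the F-box members, Fbxo30 fell over both ages. MUSA1, its product, is a substrate receptor of SCF ligases that BMP signaling keeps low in muscle. It lies on chromosome 10, from 11281330 to 11298052 on the + strand. Fbxo30 had 1807 normalized counts in the 2-month control, 2594 in the 6-month control, 444 in 2-month csPIMT-/- and 745 in 6-month csPIMT-/- hearts. The higher csPIMT-/- library stayed well under the lower control. The ratio was 0.246 at 2 months (0.219 to 0.275) and 0.287 at 6 months (0.264 to 0.312), and the limma log2 difference was -1.91 (SE 0.23, adjusted p = 0.016). Its transcript has the lowest GC content of the 8 genes, 38.2%. After GC subtraction the ratios were 0.738 and 0.911, and the limma log2 difference was -0.30 with an adjusted p of 0.44 (range over all alternatives 2.77e-07 to 0.44). Without the 6-month control, in a fit with genotype alone, the adjusted p was 0.065.

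Fbxo32 was below both controls in both csPIMT-/- libraries, with a larger gap at 6 months. Atrogin-1, its product, is the F-box protein most often used as a marker of muscle wasting, and its substrates include calcineurin and MyoD. It lies on chromosome 15, from 58175879 to 58214932 on the - strand. Its normalized counts were 4344 in the 2-month control, 7119 in the 6-month control, 3293 in 2-month csPIMT-/- and 3536 in 6-month csPIMT-/- hearts. The csPIMT-/- libraries were close to each other, while the controls differed 1.64-fold. The ratio was 0.758 at 2 months (0.723 to 0.795) and 0.497 at 6 months (0.477 to 0.517). GC-subtracted ratios were 1.12 at 2 months, on the other side of 1, and 0.784 at 6 months. The limma log2 difference was -0.70 (SE 0.24, adjusted p = 0.082). Per kb, the summed level of both F-box genes was 980 and 1533 in the controls and 560 and 654 in the csPIMT-/- libraries, and Fbxo32 held 63.6% and 66.6% of it in the controls and 84.3% and 77.5% in csPIMT-/- hearts.

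Among the FoxO factors none passed the test. Foxo3 had the highest ratios before GC subtraction and Foxo1 after it, and Foxo4 had the lowest both before and after. Foxo3, the factor best known for driving Fbxo32 in atrophy, lies on chromosome 10, from 42181841 to 42276755 on the - strand. It had 1931 normalized counts in the 2-month control, 2126 in the 6-month control, 2841 in 2-month csPIMT-/- and 3285 in 6-month csPIMT-/- hearts. Both csPIMT-/- libraries were above both controls. The ratio was 1.47 at 2 months (1.39 to 1.56) and 1.55 at 6 months (1.47 to 1.63). GC-subtracted, it was 1.10 and 1.11. The limma log2 difference was 0.59 (SE 0.20, adjusted p = 0.083).

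Foxo1, a factor of insulin signaling and of muscle and vessel growth, lies on chromosome 3, from 52268336 to 52353221 on the + strand. Its normalized counts were 678 in the 2-month control, 777 in the 6-month control, 679 in 2-month csPIMT-/- and 1012 in 6-month csPIMT-/- hearts. At 2 months the libraries were level, and the 6-month csPIMT-/- library was highest. The ratio was 1.001 at 2 months (0.896 to 1.12) and 1.30 at 6 months (1.19 to 1.43). GC-subtracted, it was 1.14 and 1.47. The limma log2 difference was 0.19 (SE 0.26, adjusted p = 0.59). Of its 50-base stretches, 6.8% lie also in other genes, among them the antisense Gm20402.

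Foxo4, the FoxO gene on the X chromosome (101254528 to 101260873, + strand), had the highest FoxO level per kb in each library. It had 1566 normalized counts in the 2-month control, 1905 in the 6-month control, 1440 in 2-month csPIMT-/- and 2057 in 6-month csPIMT-/- hearts. The csPIMT-/- library was lowest at 2 months and highest at 6 months. The ratio was 0.919 at 2 months (0.854 to 0.990) and 1.08 at 6 months (1.02 to 1.15). GC-subtracted, it was 0.615 and 0.711, below 1 at both ages. The limma log2 difference was -0.01 (SE 0.22, adjusted p = 0.99), and -0.59 after GC subtraction (adjusted p = 0.18). Foxo4 made up 57.9% and 60.1% of the summed FoxO level per kb in the controls and 48.0% and 52.2% in csPIMT-/- hearts, while the Foxo3 share was 33.0% and 31.0% in the controls and 43.7% and 38.5% in csPIMT-/- hearts.

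**Figure D3:**
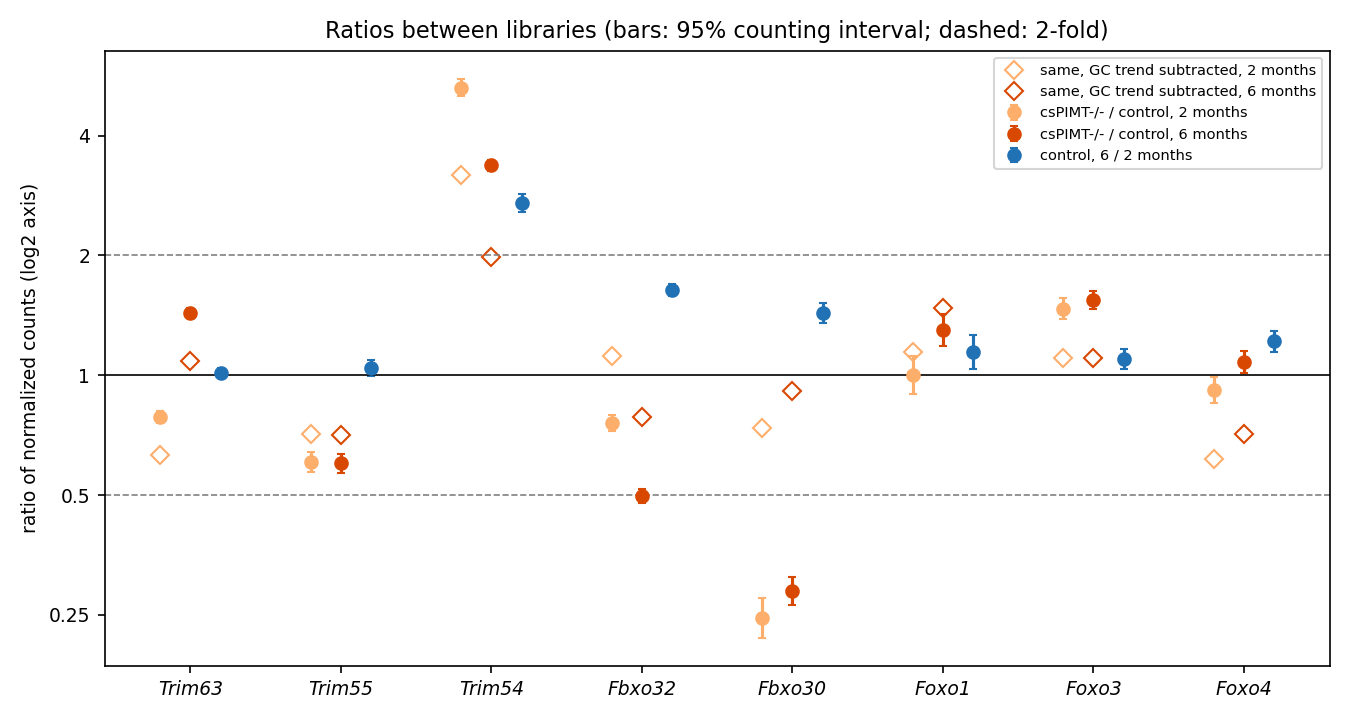
Ratio of normalized counts (y axis, log2 scale) for each gene (x axis): csPIMT-/- over control at 2 months (light orange) and 6 months (dark orange), and the 6-month over the 2-month control (blue), with bars for the 95% counting interval. Open diamonds are GC-subtracted ratios. Trim54 stands above 2 and Fbxo30 below 0.5 at both ages before GC subtraction, while the diamonds of Fbxo30 lie at 0.738 and 0.911.

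Counted by a ratio past 2-fold, 1 member (Fbxo30) was lower and 1 (Trim54) higher at 2 months, where 22.5% of the 15152 genes that reached 10 reads in either library were lower and 17.3% higher. At 6 months 2 members (Fbxo30 and Fbxo32) were lower and 1 (Trim54) higher, against 24.9% and 16.9% of 15218 genes. After GC subtraction Trim54 at 2 months was the only member past 2-fold at either age, where 11.5% of genes were lower and 14.9% higher at 2 months and 13.2% and 14.2% at 6 months. The median log2 ratio of the 8 genes was -0.24 at 2 months and 0.25 at 6 months, and that of all genes 0.00 at both. After GC subtraction the median of the 8 genes was -0.15 and -0.01. Between the control libraries 1 member, Trim54, was past 2-fold, higher at 6 months, where 9.01% of 15132 genes were higher and 4.65% lower.

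The members followed the relation of the ratios with GC content. Their transcripts ran from 38.2% GC in Fbxo30 through 45.8% in Fbxo32, 48.2% in Trim55, 48.5% in Foxo1, 52.4% in Trim63, 53.2% in Foxo3 and 55.2% in Foxo4 to 59.9% in Trim54. The gene with the lowest GC content thus had the lowest ratio and the gene with the highest GC content the highest, at both ages. The Spearman rho of ratio and GC content over the 8 genes was 0.857 at each age, a description of genes that share the same libraries. The source of the relation was not tested.

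**Figure D4:**
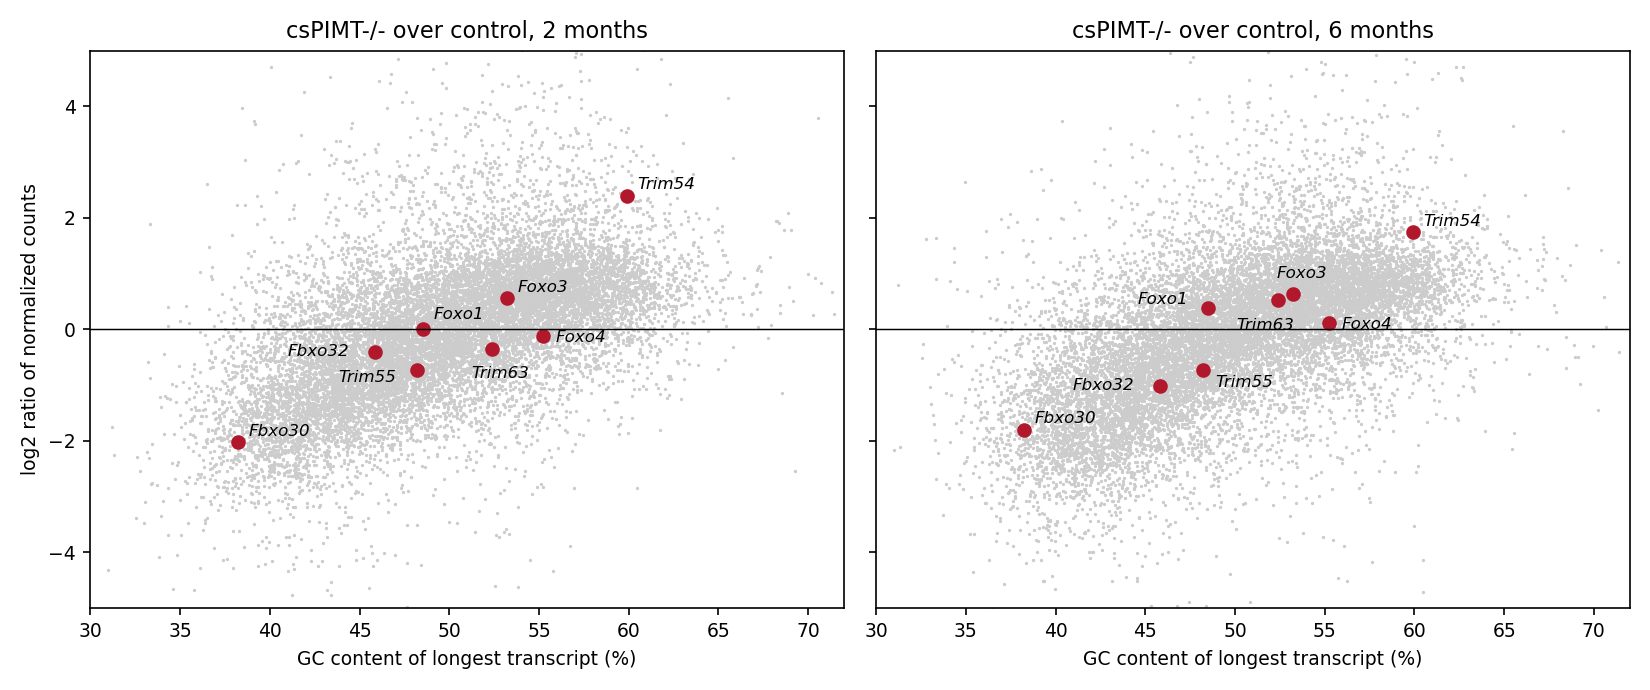
log2 ratio of csPIMT-/- over control (y axis) against the GC content of the longest transcript in percent (x axis) at 2 months (left) and 6 months (right), for 14601 genes compared at both ages (gray) and the 8 members (red). The gray cloud rises to the right, Fbxo30 lies inside its low-GC end, and Trim54 lies in its upper part on the right. Outside the frame fall 80 genes at 2 months and 40 at 6 months.

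With age, every member had a ratio of 6 over 2 months above 1 in both genotypes, from 1.02 (Trim63) to 2.71 (Trim54) in controls and from 1.04 (Trim55) to 1.85 (Trim63) in csPIMT-/- hearts. The counting interval included 1 for Trim63 in controls (0.987 to 1.04). It also did so for Trim55 in controls (0.999 to 1.09) and in csPIMT-/- hearts (0.970 to 1.11). Over all genes, 57.1% were above 1 in controls and 54% in csPIMT-/- hearts. In csPIMT-/- hearts no member passed 2-fold with age, against 9.71% of 15057 genes higher and 8.2% lower. Trim54 was 1.73, Fbxo30 1.68, Foxo1 1.49, Foxo4 1.43, Foxo3 1.16 and Fbxo32 1.07 times its 2-month level there. The pools compared differ in mice as well as in age.

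Genes that work with the members were taken from lists chosen with earlier results of these data known. Their shares past 2-fold are to be read against the all-gene shares above. Their limma calls, made without GC subtraction, are to be read against 17.5% of all genes called lower and 11% higher. After GC subtraction limma called none of 14666 genes, and so none of any list. Genes past 2-fold in the same direction at both ages were named by a rule that was also chosen with earlier results known. Skp1a, Ube2m, Ubb, Klf15, Rela, Txnip, Eif4ebp1 and Ttn were named after their values were seen. A list of 7 genes held the SCF core, which carries atrogin-1 and MUSA1, and factors that act on it, such as Ube2m. Of these 7, 1 was lower at 2 months and 2 at 6 months, and none higher. Cul1, the cullin scaffold, had 3685 and 4982 normalized counts in the controls of 2 and 6 months and 1102 and 1361 in csPIMT-/- hearts. Its ratios were 0.299 and 0.273, or 0.525 and 0.543 GC-subtracted. GC-subtracted, 0 of the 7 were lower and 1 higher at each age. limma called Cul1 and Skp1a lower and Ube2m, the E2 for NEDD8, higher.

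Of 23 other ubiquitin ligases of heart and skeletal muscle, 5 were lower and 4 higher at 2 months, and 6 lower and 2 higher at 6 months. GC-subtracted, 1 was lower and 3 higher at 2 months, and 1 lower and 2 higher at 6 months. limma called 6 lower and 5 higher. Wwp1, a HECT ligase, had ratios of 0.292 and 0.232 at 2 and 6 months, Itch, of the same NEDD4 group, 0.363 and 0.404, and the kelch protein gene Klhl31 0.416 and 0.238. GC-subtracted, Wwp1 was at 0.780 and 0.679, Itch at 0.774 and 0.987 and Klhl31 at 0.657 and 0.413. Kbtbd5, whose product KLHL40 protects thin filament proteins in muscle, had ratios of 4.62 and 2.99, and 2.80 and 1.78 GC-subtracted. Its normalized counts were 625 in the 2-month control, 1346 in the 6-month control, 2886 in 2-month csPIMT-/- and 4023 in 6-month csPIMT-/- hearts, with both controls under both csPIMT-/- libraries.

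Of 20 ubiquitin, E1 and E2 genes, 5 were lower and 0 higher at 2 months, and 4 lower and 3 higher at 6 months. GC-subtracted, 1 was lower and 0 higher at 2 months and 0 lower and 3 higher at 6 months, and the list median turned from -0.54 and -0.23 on the log2 scale to 0.26 and 0.65. limma called 5 lower and 5 higher. The E2 genes Ube2b, Ube2n and Ube2g1 had ratios of 0.347, 0.351 and 0.375 at 2 months and 0.252, 0.324 and 0.408 at 6 months. Ube2b is the E2 long linked to N-end rule breakdown in muscle. GC-subtracted, its ratios were 0.735 and 0.613, those of Ube2n 0.860 and 0.890 and those of Ube2g1 0.895 and 1.10. Ubb, a stress-inducible polyubiquitin gene, was among the 5 called higher, with a log2 difference of 1.10 (adjusted p = 0.042).

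Of 9 deubiquitinase genes, 4 were lower at each age and 1 higher at 6 months, and limma called 5 lower and 0 higher. GC-subtracted, 1 was lower at each age and 1 higher at 6 months. Usp1 had ratios of 0.189 and 0.230, Uchl3 0.334 and 0.395, and Atxn3, whose product trims ubiquitin chains, 0.450 and 0.245. GC-subtracted, Usp1 was at 0.329 and 0.454, Uchl3 at 0.9998 and 1.25, and Atxn3 at 1.11 and 0.676.

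**Figure D5:**
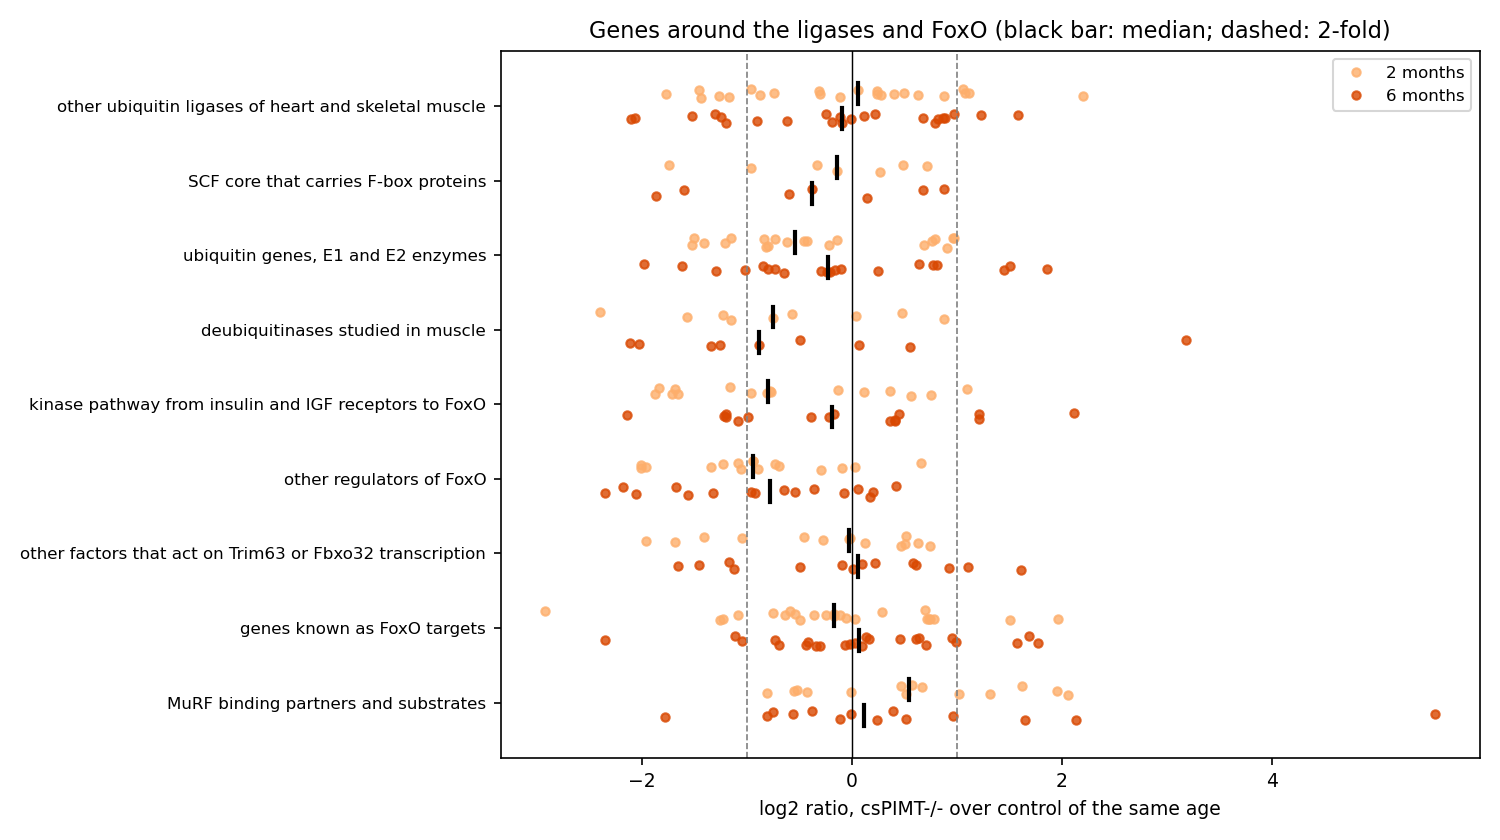
log2 ratio of csPIMT-/- over the age-matched control (x axis) for the genes of each list around the members (y axis), 1 point per gene, at 2 months (light) and 6 months (dark), with black bars at the list medians and dashed lines at 2-fold. The lowest median at 2 months is that of the other FoxO regulators, at -0.94, and the point farthest to the right is Myh7 at 6 months.

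Upstream of FoxO, 6 of 16 genes of the pathway from insulin and IGF receptors were lower and 1 higher at 2 months, and 5 lower and 3 higher at 6 months. GC-subtracted, 2 were lower and 0 higher at 2 months, and 1 lower and 3 higher at 6 months, with list medians of -0.20 and 0.01 on the log2 scale against -0.80 and -0.19 before. limma called 6 lower and 0 higher. Pik3ca, the catalytic subunit of PI 3-kinase, had ratios of 0.310 and 0.226, and Rictor, a subunit of the mTOR complex that phosphorylates AKT, had 0.446 and 0.434. GC-subtracted, Pik3ca was at 0.721 and 0.595 and Rictor at 0.917 and 1.02.

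Of 16 other regulators of FoxO, 7 were lower at 2 months and 6 at 6 months, none was higher, and limma called 7 lower and 0 higher. The list median was -0.94 and -0.78 on the log2 scale at 2 and 6 months, against 0.00 for all genes. Xpo1, the exportin that carries FoxO proteins out of the nucleus, had 3335 and 4922 normalized counts in the controls and 827 and 1086 in csPIMT-/- hearts, with ratios of 0.248 and 0.221. Mapk8, the kinase JNK1, had ratios of 0.256 and 0.195, and Sirt1, a deacetylase of FoxO proteins, 0.248 and 0.338. GC-subtracted, 1 of the 16 was lower and 1 higher at 2 months, and 1 lower at 6 months, and the list median was -0.52 and -0.22. Xpo1 was then at 0.618 and 0.614, Mapk8 at 0.660 and 0.557 and Sirt1 at 0.440 and 0.679.

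Of 14 other transcription factors and signal proteins that act on Trim63 or Fbxo32 and had enough reads, 4 were lower at each age and 2 higher at 6 months. limma called 4 lower and 2 higher. Mef2c, a muscle transcription factor, had ratios of 0.310 and 0.364, Nr3c1, the glucocorticoid receptor, 0.377 and 0.316, and Ppargc1a, a coactivator known to restrain FoxO3, 0.256 and 0.459. GC-subtracted, none of the 14 was past 2-fold at 2 months, and 1 was lower and 2 higher at 6 months. Mef2c was then at 0.748 and 0.988, Nr3c1 at 0.797 and 0.767 and Ppargc1a at 0.571 and 1.17. The higher pair in limma was Klf15, a glucocorticoid-responsive factor, with a log2 difference of 1.18 (adjusted p = 0.037), and Rela, a subunit of NF-κB.

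Downstream, 4 of 24 genes known as FoxO targets were lower and 2 higher at 2 months, and 3 lower and 3 higher at 6 months. limma called 1 lower, Bcl2l11, and 3 higher, Gabarapl1, Txnip and Eif4ebp1. Gabarapl1, of autophagosome formation, had 2366 and 2835 normalized counts in the controls and 6740 and 9125 in csPIMT-/- hearts, with ratios of 2.85 and 3.22, and 2.22 and 2.38 GC-subtracted. Bcl2l11, the proapoptotic BIM, had ratios of 0.418 and 0.482, and 0.501 and 0.579 GC-subtracted. The list median was -0.17 at 2 months and 0.06 at 6 months on the log2 scale. After GC subtraction it was 0.18 and 0.44, above 0 at both ages, with 3 genes lower and 5 higher at 2 months and 1 lower and 5 higher at 6 months.

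Of 14 binding partners and substrates of MuRF proteins, none was lower and 5 were higher at 2 months, and 1 was lower and 3 higher at 6 months. GC-subtracted, 0 were lower and 3 higher at 2 months, and 3 lower and 3 higher at 6 months, and the list median went from 0.54 and 0.12 to 0.24 and -0.40 on the log2 scale. limma called 0 lower and 3 higher. Myh7, the slow myosin heavy chain that returns in stressed mouse ventricle, had 7204 and 6589 normalized counts in the controls and 30098 and 310924 in csPIMT-/- hearts, with ratios of 4.18 and 47.2. Sqstm1, the autophagy receptor p62, had ratios of 3.09 and 3.15, and Des, encoding desmin, 2.50 and 4.39. GC-subtracted, the ratios of Myh7 were 2.69 and 30.04, those of Sqstm1 2.20 and 2.17 and those of Des 1.59 and 2.77. Titin mRNA (Ttn), whose product binds the MuRF proteins at the M-band, had ratios of 0.572 and 0.291, or 0.730 and 0.379 GC-subtracted, with an adjusted limma p of 0.14.

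Genes of most similar pattern were sought over the 4 libraries for Trim63, Fbxo32 and Foxo3, among 12823 genes, by the Euclidean distance of log2 normalized counts centred on each gene. Nearest to Trim63 were Spire1, Klraq1 and Mafg, at distances of 0.061, 0.096 and 0.10. Spire1 had 346 and 333 normalized counts in the controls of 2 and 6 months and 259 and 481 in csPIMT-/- hearts. Nearest to Fbxo32 were Ccnd2, Scp2 and Ccpg1, at 0.092, 0.096 and 0.10. Nearest to Foxo3 were Cpt1c, Accs and Abcf3, at 0.020, 0.036 and 0.040. With 4 libraries and so many genes, near matches of this kind are a description of the pattern.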

How the data were processed

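Hearts of PIMT fl/fl and csPIMT-/- mice of 2 and 6 months gave 4 libraries, each from the pooled RNA of 5 hearts. The authors prepared directional polyadenylated RNA libraries, filtered reads, aligned them to mm10 with STAR (version not given in the sources used here), counted them per gene with HTSeq 0.6.1p1 and a UCSC annotation, and used DESeq2. The deposited signal is 1 normalized count per gene, although 1 column is headed as read counts. In each library 100% of the values were whole multiples of the smallest (largest deviation 4.9e-09 reads), so whole reads were recovered. The reads came to 39854713 and 40705783 in the controls of 2 and 6 months, and 29823073 and 36172093 in csPIMT-/- hearts.

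Ratios of normalized counts used genes with at least 10 reads in 1 of both libraries, a 2-fold call, 95% Clopper-Pearson intervals for counting error only, and 0.5 reads added for log2 ratios. The GC trend was a lowess curve with a span of 0.3 on the GC content of the longest transcript, available for 97.9% of symbols from a GENCODE annotation of GRCm38. limma 3.58.1 in R 4.3.3 was run with a variance trend on log2(normalized count + 1). It was also run on simulated counts that had no age effect and no GC trend. That trial therefore cannot tell how the fit behaves in libraries with such a trend. edgeR 4.0.16 and DESeq2 1.42.0 on recovered reads were alternatives, as were other scalings, filters, pseudocounts, controls and leaving out 1 library. The members, the lists and the rule for named genes (past 2-fold in the same direction at both ages with at least 100 reads, at most 3 a direction) were chosen with earlier results of these data known. Some genes of the lists are counted but not reported here by name. Nothing says which run each library was in, so no batch could be compared.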

Additional observations from a re-analysis of the deposited data

Results flagged for a closer look

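Trim63 had opposite directions at the 2 ages, with a ratio of csPIMT-/- over control of 0.784 at 2 months and 1.43 at 6 months. The ratio of the ratios was 1.83, with a counting interval of 1.75 to 1.91, and 1.73 after GC subtraction. Foxo4 had a ratio of 0.919 at 2 months and 1.08 at 6 months, a ratio of ratios of 1.17 (1.07 to 1.29), and lay below 1 at both ages after GC subtraction. With 1 pool per group, neither difference between ages was tested against the variation between pools. Over all genes, 10.5% had a ratio below 1 at 2 months and above 1 at 6 months.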

How the results depend on the processing

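No paired analysis was possible because each group had 1 library and the replicate numbers only name the samples. Subtracting the GC trend moved most values: past 2-fold, 0 members were then lower at 2 months, 0 lower and 0 higher at 6 months, and over all genes 1719 were lower at 2 months and 1978 at 6 months. limma then called 0 members and 0 genes in each direction. Without a variance trend it also called 0 members and 0 genes in each direction, with 3448 lower and 2517 higher at an unadjusted p below 0.05. With the control of the other age, 2 members were lower and 0 higher at 2 months and 1 lower at 6 months. With both controls averaged, 1 was lower at 6 months. At 100 reads or more, 1724 genes were higher at 2 months. limma called 2 members lower with a pseudocount of 5, without the filter, after TMM, or with genotype alone, the second being Trim55 (adjusted p = 0.0492, 0.0492, 0.0498 and 0.0353). Leaving out 1 library, with genotype alone and a lone library assumed to vary like the rest, gave 0 to 1 members lower and 0 to 1 higher, and 366 to 1882 genes lower and 274 to 1082 higher. They were 1280 and 274 without the 2-month control, 366 and 363 without the 6-month control, and 659 higher without the 6-month csPIMT-/- library. The log2 difference of Trim63 was -0.26 after GC subtraction and -0.36 without the 6-month csPIMT-/- library, and that of Foxo1 was -0.10 without that library. That of Foxo4, -0.01 as reported, was 0.0049 with TMM, 0.0051 with edgeR and 0.0052 with DESeq2, and 0.14 to 0.25 in the fits that reversed it by leaving out the 6-month control or the 2-month csPIMT-/- library. The causes were not tested. The fewest reads of a member in a library were 360 (Fbxo30), and the variation between pools is unmeasured.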
